A study of Rattus norvegicus with 8 samples.

Results

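Astrocyte genes were described in the striatum of rats that had self-administered methamphetamine (METH) or saline. The set was a list of 39 gene symbols that mark astrocytes or are abundant in them. Rows were taken by symbol and not by a measured value, but the list was chosen with earlier results of these data known. A row was present in the counts for 38 of the 39, the exception being Hepacam, and 37 of the 38 had enough reads to be tested, the exception being Serpina3n. The whole table held 17337 genes, of which 12014 were tested.

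Striatal poly(A) RNA had been sequenced from 8 male Sprague-Dawley rats of wild-type genotype, 4 that self-administered METH intravenously and 4 that self-administered saline by the same route. Both groups had catheter surgery and lever training with food before the daily sessions, and only rats with stable responding were kept, so the animals were selected ones. The age of the rats, the striatal subregion and the interval between the last session and tissue collection were not given in the sources used here. The rats are called saline 1 to 4 and METH 1 to 4, and the same number in the 2 groups marks different animals.

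Astrocytes clear glutamate and potassium from the space around synapses, turn glutamate into glutamine, and are joined to one another by gap junctions. They hold the brain's glycogen, secrete lipoproteins, and wrap vessels with endfeet rich in the water channel aquaporin-4. After injury or inflammation they raise intermediate filaments and a set of secreted proteins, a state called reactive.

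None of the 37 tested astrocyte genes passed the test of METH against saline rats after correction over all genes. The fitted values of the glutamate transporters and glutamine synthetase were within 0.2 log2 units of the saline level. This held for 30 of the 37 genes and for 8413 of all 12014 genes tested. The median size of the log2 fold change was nearly the same, 0.1193 for the 37 genes and 0.1201 for all genes. For the transporter gene Slc1a2 the 95% interval, from -0.62 to 0.25, also includes larger differences. Of the genes with an unadjusted p below 0.05, all 6 had the higher mean in METH rats: Gjb6 (connexin 30, a gap junction subunit), Agt (angiotensinogen), Clu (clusterin) and Apoe (apolipoprotein E), which are secreted, Id3, a regulator of transcription, and Ntsr2, a neurotensin receptor. Their differences ran from 0.18 to 0.45 log2 units. Only for Gjb6 did all 4 METH rats lie above all 4 saline rats (1 of 37 genes, 2.7%, against 3.75% of all genes).

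Levels are given as CPM, reads of a gene per 1000000 reads of the library after TMM scaling, with the mean ± SD over 4 rats. Differences are log2 fold changes of METH over saline from edgeR's quasi-likelihood test, with the standard error (SE). A gene was called at a false discovery rate (FDR, Benjamini-Hochberg over 12014 genes) below 0.05 with a mean log2 CPM above 1. By this rule 62 genes were called across the transcriptome (0.516%), 54 higher and 8 lower, and 0 of the 37 astrocyte genes were among them (0 also by limma-voom, and 1, Gjb6, by DESeq2 and by edgeR's likelihood ratio test). Lcn2 (0.82) and Slc39a12 (-0.28) had a mean log2 CPM below 1, so this rule could not call them at any FDR. An unadjusted p below 0.05 with a higher METH mean was found for 6.26% of all genes and for 6 of 37 astrocyte genes (16.2%). With a lower METH mean it was found for 4.88% of all genes and 0 of 37 astrocyte genes. All 4 METH rats lay above all 4 saline rats for 3.75% of all genes and 1 of 37 astrocyte genes (2.7%), and below them for 2.65% of all genes and 0 of 37. The median log2 fold change of the 37 genes was 0.07, against -0.01 for all genes tested, with 23 genes above and 14 below 0. The 37 values come from the same pieces of tissue, so their number is not a number of independent observations. In bulk tissue, fewer cells of a type and less RNA per cell cannot be told apart.

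**Figure D1:**
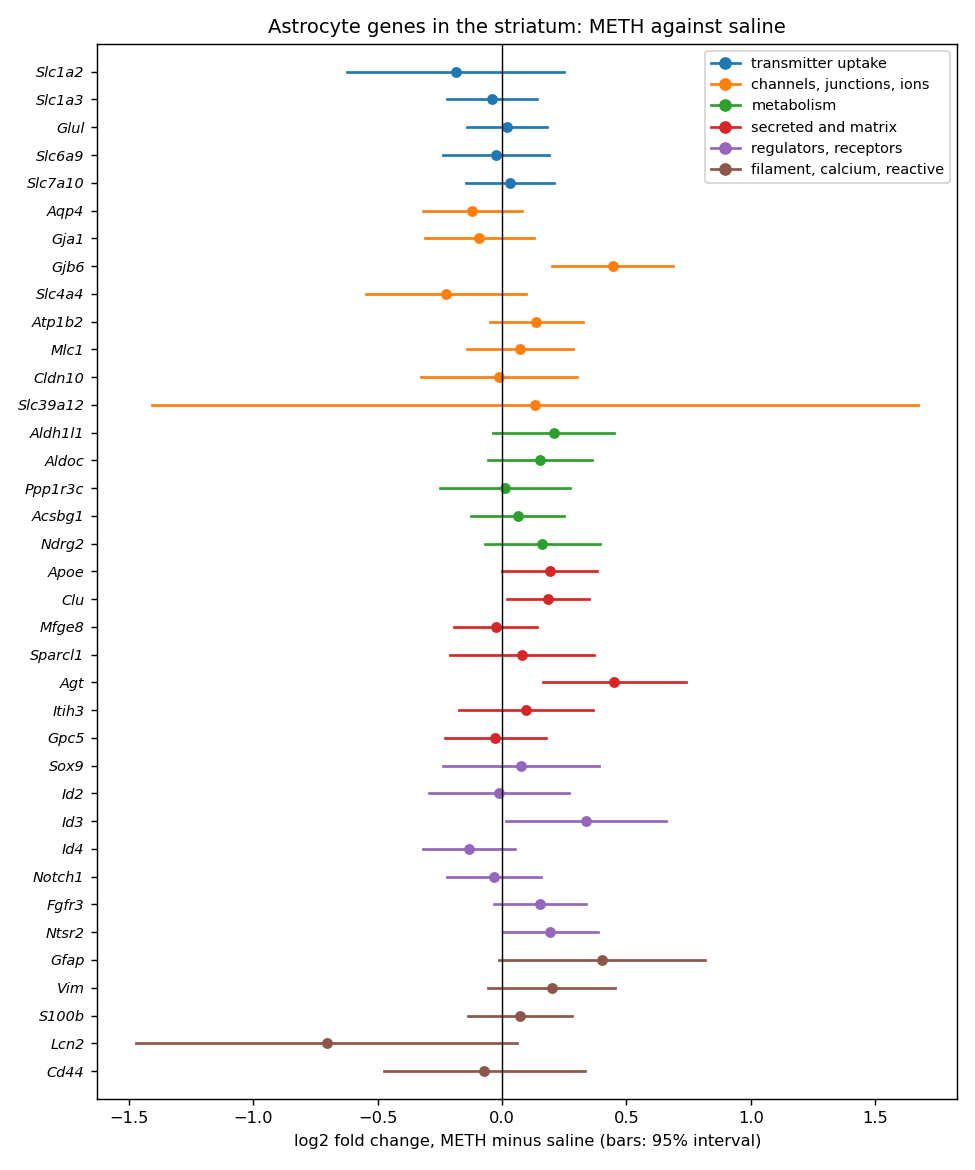
Log2 fold change of METH over saline (x axis, log2 units) for the 37 tested astrocyte genes (y axis), coloured by role, with points for the fitted value and bars for its 95% interval. The points lie between -0.70 (Lcn2) and 0.45 (Agt), and the intervals of the 6 genes named above lie to the right of 0.

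The count of 6 depended on scaling and on single rats. With library totals in place of TMM it was 2 of 37 against 4.45% of all genes, and the 2 genes were Gjb6 and Agt. Without saline 3 it was also 2 (against 5.17% of all genes), as it was without saline 4 (against 4.94%), again Gjb6 and Agt. Without METH 3 it was 3, Gjb6, Agt and Clu (against 4.19% of all genes), and without saline 2 it was 10 (against 5.77%). A count of 2 of 37 is near these shares of all genes. The median of the 37 genes kept its sign under each of these settings, from 0.002 without saline 3 to 0.12 without saline 2.

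Depth was similar in the groups, at 18135939 to 20832550 counts per rat for saline and 18520038 to 21211920 for METH. At these depths 3 counts correspond to 0.141 to 0.165 CPM. The defining astrocyte genes were present in every library, Gfap at 239.9 CPM or more, Aqp4 at 372 or more and Slc1a3 at 618 or more. Summed over the 38 listed genes, the level was 19804, 20059, 16882 and 17700.0 CPM in saline 1 to 4 and 20344, 19004, 21476 and 19793 CPM in METH 1 to 4. The groups overlapped in this sum, which is dominated by Apoe, Glul, S100b, Aldoc and Ndrg2.

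Transmitter uptake and recycling genes had small differences. The 5 members were Slc1a2 (GLT-1) and Slc1a3 (GLAST), the astrocytic glutamate transporters, Glul, glutamine synthetase, Slc6a9, the glycine transporter GlyT1, and Slc7a10, a transporter of small neutral amino acids that include D-serine. None had an unadjusted p below 0.05, 2 had the higher and 3 the lower mean in METH rats, and the log2 fold changes lay between -0.19 and 0.03.

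Slc1a2 read 122, 207, 203 and 151 CPM in saline 1 to 4 and 149, 217, 104 and 131 CPM in METH 1 to 4. Its highest value was in METH 2 and its lowest in METH 3, so the METH rats enclosed the whole saline range. The means were 171 ± 41.0 CPM and 150.0 ± 48.3 CPM, a log2 fold change of -0.19 (SE 0.20, FDR = 0.755), with a 95% interval from -0.62 to 0.25. The difference was smaller than the spread between rats (exact permutation p = 0.543).

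Slc1a3 gave 766, 787, 667 and 699.8 CPM in the saline rats and 777, 710.2, 618 and 734 CPM in the METH rats. These ranges overlapped almost fully, with METH 3 lowest. Slc1a3 differed by -0.04 log2 units (SE 0.08, FDR = 0.889, exact permutation p = 0.686), and its interval from -0.22 to 0.14 bounds the size of any difference. Slc7a10 was the steadiest of the 5, at 47.4, 43.1, 41.6 and 44.8 CPM in saline and 44.2, 47.1, 47.2 and 42.3 CPM in METH rats. Its log2 fold change was 0.03 (SE 0.08, FDR = 0.918, exact permutation p = 0.629). Glul averaged 1967 ± 162 CPM in saline and 1994 ± 118 CPM in METH rats, with a log2 fold change of 0.02 and an interval from -0.14 to 0.18. Slc6a9 had a log2 fold change of -0.02 (SE 0.10, FDR = 0.953).

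Channel, junction and ion transport genes included Gjb6, the only one of the 37 genes whose groups did not overlap. That is 2.7%, not above the share of all genes (3.75% with METH rats all above and 2.65% all below). Gap junctions between astrocytes are built mainly of connexin 43 (Gja1) and connexin 30 (Gjb6), and these genes had opposite signs here. Of the 8 tested members 4 had a higher and 4 a lower mean in METH rats, and 1, Gjb6, had an unadjusted p below 0.05.

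Gjb6 read 30.7, 26.7, 25.5 and 24.7 CPM in saline 1 to 4 and 41.7, 32.1, 39.6 and 32.9 CPM in METH 1 to 4. The lowest METH rat, METH 2, lay above the highest saline rat, saline 1. The mean went from 26.9 ± 2.69 to 36.6 ± 4.80 CPM, 1.36-fold, a log2 fold change of 0.44 (SE 0.11) with an interval from 0.20 to 0.69. The unadjusted p was 0.00158 and the FDR 0.137 in edgeR's quasi-likelihood test, and the exact permutation p was 0.0286, the smallest that 4 against 4 rats allow. The gene was called by DESeq2 (FDR = 0.0282) and by edgeR's likelihood ratio test (FDR = 0.0299), and its FDR reached 0.348 without METH 3. With any single rat left out, its log2 fold change stayed between 0.37 and 0.51.

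Gja1 gave 513, 494, 476 and 537 CPM in the saline rats and 590.1, 425, 415 and 466 CPM in the METH rats. METH 1 was the highest of the 8 rats and the other 3 METH rats were below all saline rats. Its log2 fold change was -0.09 (SE 0.10, FDR = 0.765, exact permutation p = 0.400), and without METH 1 it was -0.21. The difference between the fold changes of Gjb6 and Gja1 was not itself tested.

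Gjb6 had the lowest unadjusted p of the 37 genes but was not called by the main test, and Gja1 is its partner in the junction. For that reason the upstream sequences of these connexin genes are shown. Each is the 250 bases before a RefSeq transcription start in the GRCr8 assembly, which is a later build than the rn6 used for counting, so genes were matched by symbol. Capitals mark matches on either strand to the letters GGGCGG of the GC box, or to the glucocorticoid receptor half-site with the letters AGAACA. The first start of Gjb6 (chr15:35410139-35410388, minus strand), its second start (chr15:35408963-35409212, minus strand) and the start of Gja1 (chr20:36302314-36302563, plus strand) read as follows.
Gjb6, first start: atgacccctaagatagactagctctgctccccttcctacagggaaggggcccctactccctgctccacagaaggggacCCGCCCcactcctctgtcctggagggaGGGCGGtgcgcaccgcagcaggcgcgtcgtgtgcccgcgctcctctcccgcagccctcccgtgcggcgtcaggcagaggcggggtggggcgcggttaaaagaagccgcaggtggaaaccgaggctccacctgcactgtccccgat
Gjb6, second start: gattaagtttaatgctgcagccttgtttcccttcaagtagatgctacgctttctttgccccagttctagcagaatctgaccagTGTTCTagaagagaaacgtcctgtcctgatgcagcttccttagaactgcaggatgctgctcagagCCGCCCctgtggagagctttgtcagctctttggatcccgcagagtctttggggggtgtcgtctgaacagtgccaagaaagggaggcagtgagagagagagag
Gja1: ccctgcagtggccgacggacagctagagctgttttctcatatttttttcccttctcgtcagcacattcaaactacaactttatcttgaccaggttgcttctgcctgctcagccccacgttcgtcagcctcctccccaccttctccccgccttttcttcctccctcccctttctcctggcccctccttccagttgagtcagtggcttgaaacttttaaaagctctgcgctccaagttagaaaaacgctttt

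The first Gjb6 window held 2 GC boxes, the second 1 GC box and 1 half-site, and the Gja1 window neither. Of the 39 symbols 36 had windows, 46 in all, and Clu, Agt and Sox9 had none in the table used. A gene with several start sites gave several windows, and some of these overlap. For Apoe 2 windows share the same 2 GC boxes, and the windows of Slc1a3 are almost the same stretch, so the 46 are not independent. The GC box was in 23 of the 46 windows (50.0%) and in 30.5% of all 33469 windows of the same length. The half-site was in 3 of 46 (6.52%) and in 17.5% of all windows. A STAT site, with the letters TTCNNNGAA, was in 4 (8.70%) and in 7.67% of all windows. A TATA box, with the letters TATAAA, was in 5 (10.9%) and in 12.9% of all windows. Matches to the half-site and the STAT site can share bases, and a match is a stretch of letters, not evidence of binding.

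Aqp4, the endfoot water channel, read 391, 491, 419 and 448 CPM in saline and 469.6, 388, 372 and 381 CPM in METH rats. METH 1 was within the saline range and the other 3 METH rats were below it. For Aqp4 the log2 fold change was -0.12 (SE 0.09, interval -0.32 to 0.08, FDR = 0.643, exact permutation p = 0.257), and without METH 1 it was -0.20. Slc4a4, the sodium bicarbonate cotransporter NBCe1, had the lowest log2 fold change of these genes. It read 56.5, 58.7, 74.6 and 59.7 CPM in saline and 53.3, 70.4, 38.9 and 50.9 CPM in METH rats. METH 3 was low and METH 2 lay inside the saline range, and the log2 fold change of -0.22 (SE 0.15) had an FDR of 0.577 and an exact permutation p of 0.286.

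Atp1b2, the beta subunit of the glial sodium pump, averaged 434 ± 52.7 CPM in saline and 478 ± 19.9 CPM in METH rats, a log2 fold change of 0.14 (FDR = 0.557). Mlc1, a membrane protein of perivascular endfeet, had 0.07 (FDR = 0.809). Cldn10, a claudin, had -0.01 (FDR = 0.984). Slc39a12, the zinc transporter ZIP12, was near the limit of detection with 5, 21, 1 and 29 counts in saline and 18, 7, 8 and 26 in METH rats, and its interval from -1.41 to 1.67 shows that no difference of ordinary size was detectable for it at this depth. No value can be given for Hepacam, the cell adhesion partner of Mlc1.

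The 5 genes grouped under metabolism, with Ndrg2 placed among them, all had a higher mean in METH rats, by 0.01 to 0.21 log2 units. So had 5842 of all 12014 genes. None of the 5 had an unadjusted p below 0.05. Aldh1l1, the folate enzyme widely used as a pan-astrocyte marker, read 20.0, 18.7, 19.1 and 16.8 CPM in saline and 20.3, 20.8, 19.8 and 25.1 CPM in METH rats. METH 1, 2 and 4 were above every saline rat and METH 3 was just below saline 1. The log2 fold change was 0.21 (SE 0.11, interval -0.04 to 0.45, FDR = 0.503, exact permutation p = 0.0571).

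Ppp1r3c, a glycogen-targeting subunit of protein phosphatase 1, marked the other end of the metabolic group. It read 52.2, 63.6, 41.9 and 51.5 CPM in saline and 56.5, 55.2, 44.2 and 55.0 CPM in METH rats, a log2 fold change of 0.01 (SE 0.12, FDR = 0.981, exact permutation p = 0.914). METH 1, 2 and 4 were within 2 CPM of one another and METH 3 was low. Aldoc, the brain form of the glycolytic enzyme aldolase, averaged 1337 ± 199 CPM in saline and 1487 ± 83.7 CPM in METH rats (log2 fold change 0.15, FDR = 0.559). Ndrg2, a cytoplasmic protein that marks mature astrocytes, had 0.16 (FDR = 0.577) and Acsbg1, an acyl-CoA synthetase, 0.06 (FDR = 0.813). For Aldoc, Ndrg2 and Acsbg1 the SD in saline rats was larger than in METH rats, with saline 3 and saline 4 low, and the METH values lay near those of saline 1 and 2.

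Secreted and matrix genes held 3 of the 6 members with an unadjusted p below 0.05. Of the 7 genes 5 had a higher mean in METH rats. Agt, the precursor of the angiotensin peptides, which in brain is made mainly by astrocytes, read 51.3, 55.2, 49.1 and 56.5 CPM in saline and 85.1, 66.3, 85.7 and 53.0 CPM in METH rats. METH 1, 2 and 3 were above all saline rats and METH 4 lay among them. The mean went from 53.0 ± 3.46 to 72.5 ± 15.9 CPM, 1.37-fold, a log2 fold change of 0.45 (SE 0.13, interval 0.16 to 0.74) with an unadjusted p of 0.00471 and an FDR of 0.224 by edgeR's quasi-likelihood test. The exact permutation p was 0.0857. Agt was called only without METH 4, the low rat, where its log2 fold change was 0.58 (FDR = 0.0404), and over all alternatives its FDR ran from 0.0404 to 0.535.

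**Figure D2:**
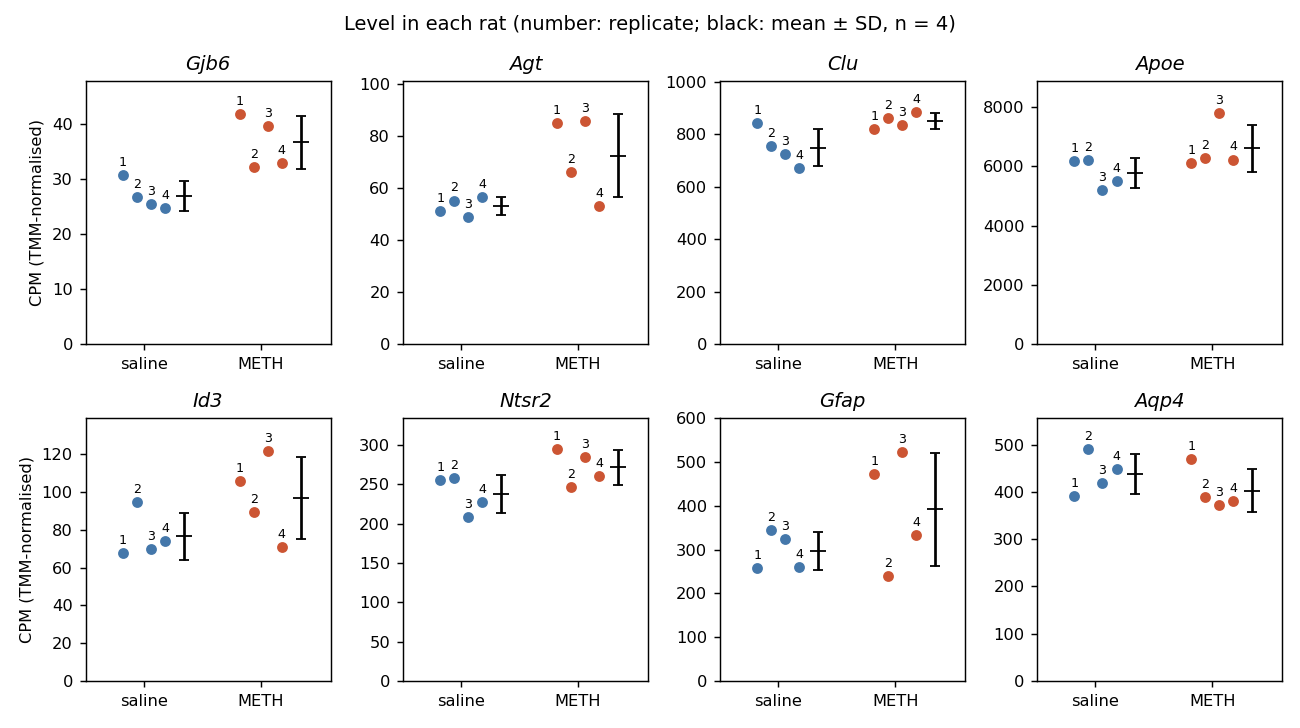
TMM-normalised CPM (y axis, from 0) in each of the 4 saline and 4 METH rats (x axis, replicate number above each point) for the 6 astrocyte genes with an unadjusted p below 0.05 and for Gfap and Aqp4, with the mean ± SD in black. Gjb6 is the only one of the 8 without overlap, from 32.1 CPM in METH 2 against 30.7 in saline 1, and for Agt, Id3 and Gfap METH 1 and METH 3 stand above the other rats.

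Clu, an extracellular chaperone also called apolipoprotein J, read 844, 756, 725 and 673 CPM in saline and 819, 863, 837 and 885 CPM in METH rats. Only saline 1 reached the METH range. Clu was 1.14-fold higher by its means, a log2 fold change of 0.18 (SE 0.08, interval 0.02 to 0.35), with an unadjusted p of 0.0311, an FDR of 0.400 and an exact permutation p of 0.0857.

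Apoe, the main lipid carrier released by astrocytes, gave 6194, 6229.5, 5197 and 5521 CPM in saline and 6102, 6288, 7799 and 6233 CPM in METH rats. METH 3 stood far above the others, METH 2 and METH 4 were just above the highest saline rat, and METH 1 was below saline 1 and 2. For Apoe it was 0.19 (SE 0.09), 1.14-fold, with an unadjusted p of 0.0490, an FDR of 0.443 and an exact permutation p of 0.143. Without METH 3 it was 0.10 with an unadjusted p of 0.172 in edgeR's quasi-likelihood test.

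The other secreted and matrix genes differed by less than the spread between rats. Gpc5, a glypican of the extracellular matrix, read 61.4, 54.4, 49.8 and 49.1 CPM in saline and 55.8, 56.7, 49.1 and 49.0 CPM in METH rats, with both groups over nearly the same range (log2 fold change -0.03, SE 0.09, FDR = 0.944, exact permutation p = 0.857). Sparcl1 (hevin, a matrix protein that promotes synapse formation) had 0.08 (FDR = 0.847), Itih3 (a hyaluronan-binding protein) 0.10 (FDR = 0.799) and Mfge8 (a bridging protein for phagocytosis) -0.03 (FDR = 0.930).

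Regulators and receptors were mixed, with 4 of 7 higher and 3 lower in METH rats. The Id genes, targets of BMP signalling whose proteins hold back basic helix-loop-helix transcription factors, gave values on both sides of 0. Id3 read 67.7, 94.7, 69.8 and 74.2 CPM in saline and 106, 89.2, 122 and 70.9 CPM in METH rats. METH 1 and METH 3 were above all saline rats, while METH 2 and METH 4 lay among them. Its log2 fold change was 0.34 (SE 0.15, interval 0.02 to 0.66), 1.26-fold, with an unadjusted p of 0.0408, an FDR of 0.428 and an exact permutation p of 0.20. Without METH 3 it was 0.21, with an unadjusted p of 0.158 in edgeR's quasi-likelihood test.

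Id4 had the lowest log2 fold change of the regulators, with the opposite sign to Id3. Its levels were 138, 148, 144 and 115 CPM in saline and 132, 126, 119 and 119 CPM in METH rats. All METH rats lay between saline 4 and saline 1. The log2 fold change was -0.13 (SE 0.09, FDR = 0.565, exact permutation p = 0.20). Id2 had -0.01 (FDR = 0.984), and Id1, which is not one of the 39, had 0.25 (FDR = 0.546).

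Ntsr2, the low-affinity neurotensin receptor of astrocytes, read 256, 258, 208 and 227 CPM in saline and 294, 247, 285 and 260.5 CPM in METH rats. METH 1, 3 and 4 were above all saline rats and METH 2 was below saline 1 and 2. The log2 fold change was 0.19 (SE 0.09), 1.14-fold, with an unadjusted p of 0.0456, an FDR of 0.433 and an exact permutation p of 0.114. Fgfr3, a fibroblast growth factor receptor, lay between 92.8 and 105 CPM in saline and between 94.8 and 120.0 CPM in METH rats (log2 fold change 0.15, FDR = 0.514). Sox9, the transcription factor of astrocyte identity, had 0.08 (FDR = 0.872) and the receptor Notch1 -0.03 (FDR = 0.920).

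The filament, calcium-binding and reactive genes had the widest range of the 6 role groups, from -0.70 to 0.40, and none had an unadjusted p below 0.05. Gfap, the astrocyte intermediate filament whose rise is the usual sign of reactivity, read 258, 344, 324 and 261 CPM in saline and 472, 239.9, 522 and 334 CPM in METH rats. METH 1 and METH 3 were far above the saline range, METH 4 was inside it and METH 2 was the lowest of the 8 rats. The means were 296 ± 43.7 and 392 ± 129 CPM, 1.32-fold, a log2 fold change of 0.40 (SE 0.19) with an interval from -0.01 to 0.82. The FDR was 0.457 and the exact permutation p 0.314. The log2 fold change ran from 0.23 without METH 3 to 0.58 without METH 2.

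Vim, vimentin, a partner filament of GFAP, averaged 89.8 ± 9.57 CPM in saline and 103 ± 19.2 CPM in METH rats, with METH 1 at 132 CPM and the other METH rats between 91.3 and 96.0 CPM. Its log2 fold change was 0.20 (SE 0.12, FDR = 0.537). S100b, a calcium-binding protein, read 1539, 1724, 1285 and 1449.8 CPM in saline and 1788, 1389, 1619 and 1509 CPM in METH rats, and the ranges overlapped. Its log2 fold change was 0.07 (SE 0.10, interval -0.14 to 0.28, FDR = 0.806, exact permutation p = 0.571).

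The reactive markers that are nearly silent in healthy tissue were low in both groups. Lcn2, lipocalin-2, had 26, 43, 64 and 33 counts in saline and 25, 34, 23 and 17 in METH rats, or 1.43, 2.15, 3.09 and 1.56 CPM against 1.22, 1.62, 1.30 and 0.896 CPM. Only METH 2 lay inside the saline range, the other 3 METH rats being below it. The log2 fold change was -0.70 (SE 0.36, interval -1.47 to 0.06, FDR = 0.474, exact permutation p = 0.0857). Serpina3n, a serine protease inhibitor, had 6, 0, 0 and 2 counts in saline and 0, 0, 0 and 1 in METH rats, too few to test. Cd44, a hyaluronan receptor, had a log2 fold change of -0.07 (FDR = 0.919).

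**Figure D3:**
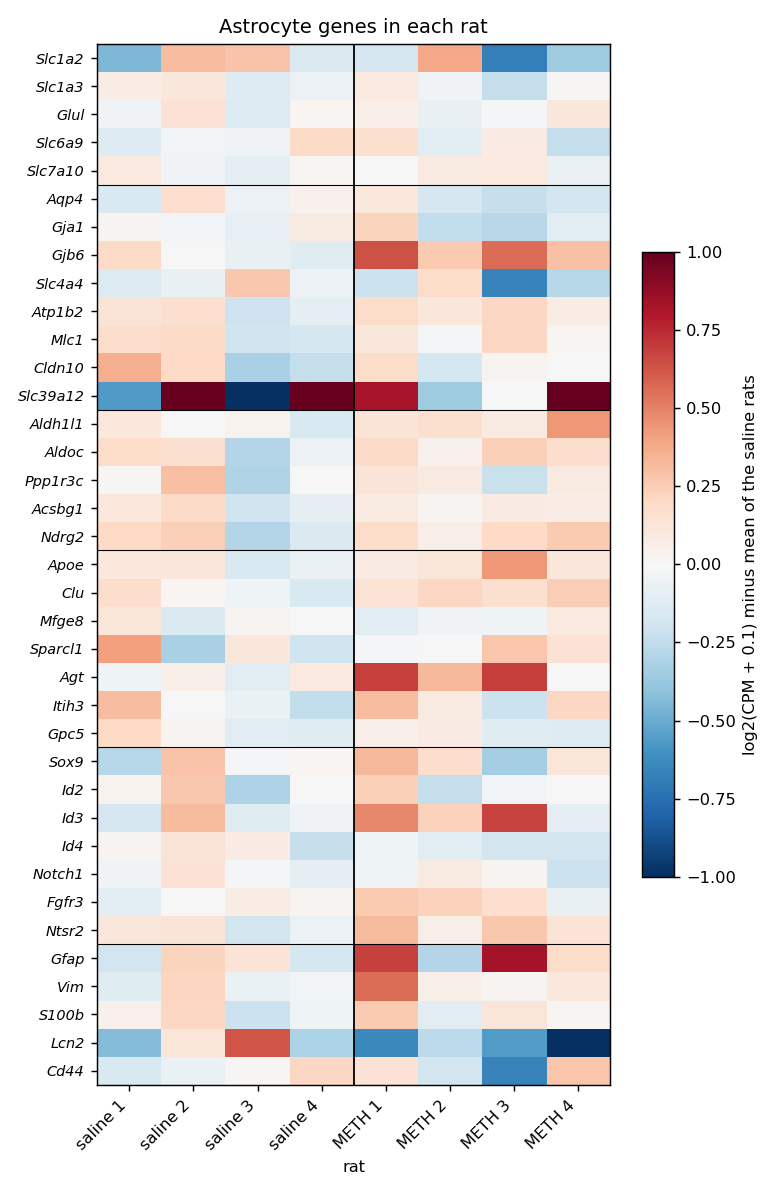
Heat map of the 37 tested astrocyte genes (rows, grouped by role) in the 8 rats (columns), coloured by log2(CPM + 0.1) minus the mean of the saline rats. METH 1 and METH 3 are red for Gjb6, Agt, Id3 and Gfap, and saline 3 is the lowest saline rat for 17 of the 37 genes (28.0% of all genes). Colours end at 1 log2 unit, which only Slc39a12 and Lcn2 reach.

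Rats of the same group also differed among themselves. Within the saline group, saline 2 had the highest value for 19 of the 37 genes, against 26.4% of all genes. Saline 3 had the lowest for 17, against 28.0% of all genes. Saline 1 and 2 were the upper pair for 16 of 37 genes (43.2%, against 21.4% of all genes), among them Slc1a3, Aldoc, Ndrg2, Apoe, Clu and S100b. Within the METH group, METH 1 was highest for 16 of 37 genes, against 25.3% of all genes. METH 1 and 3 were the upper pair for 12 of 37 (32.4%, against 17.5% of all genes), which included Gjb6, Agt, Id3, Ntsr2 and Gfap. METH 3 was also the lowest METH rat for 11 of 37 genes, near its share of 31.2% of all genes, among them Slc1a2, Slc1a3, Slc4a4 and Cd44. METH 3 was the highest or the lowest of its group more often than the other METH rats over the whole transcriptome too, for 31.9% and 31.2% of genes.

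Markers of other cell types varied between the same rats. The summed level of 10 oligodendrocyte genes was 14613, 19826, 13881 and 17478 CPM in saline 1 to 4 and 17962, 13714, 19322 and 13005 CPM in METH 1 to 4. METH 1 and METH 3, the rats high in Gfap, Agt, Id3 and Gjb6, were thus also the METH rats high in myelin genes, with Mbp at 10061 and 11796 CPM against 7685 and 7268 CPM in METH 2 and 4. Of the 10 genes 0 were higher and 1, Pdgfra of the precursor cells (log2 fold change -0.32, FDR = 0.193), lower at an unadjusted p below 0.05. These shares are 0% and 10%, against 6.26% and 4.88% of all genes.

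For genes of the choroid plexus and ependyma, 9 of 10 were listed and 5 tested. They summed to 41.0, 55.9, 53.2 and 51.6 CPM in saline 1 to 4. In METH 1 to 4 the sums were 74.4, 47.3, 63.7 and 73.2 CPM, so METH 4 was above METH 3. Foxj1, a regulator of motile cilia, had 0.48 (FDR = 0.270) and Clic6 0.79 (FDR = 0.412), the 2 with an unadjusted p below 0.05, both higher. They are 40% of the 5 tested genes, against 6.26% of all genes in this direction. Ttr, the defining choroid plexus gene, was at 0.0549, 0, 0.145 and 0 CPM in saline and 1.37, 0.190, 2.03 and 0 CPM in METH rats, and Otx2 was at 0 in all 8. Ttr was thus highest in METH 1 and METH 3, but it had too few counts to be tested. Of the 5 tested genes, Foxj1 and Folr1 were highest among METH rats in METH 1. Clic6, Ccdc153 and Tmem212 were highest in METH 4. The part of myelin or ventricular tissue in the differences of Gfap, Agt, Id3 and Gjb6 was not tested.

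Endothelial and pericyte genes, whose cells the astrocyte endfeet touch, were lower by value in all 10 of 10, as were 6172 of all 12014 genes. Of the 10, 4 had an unadjusted p below 0.05 (40%, against 4.88% of all genes in this direction). Among these were Abcc9 (-0.47, FDR = 0.286), Tek (-0.34, FDR = 0.309) and Pdgfrb (-0.28, FDR = 0.356). Their sum was 502 to 709.8 CPM in saline and 495 to 523 CPM in METH rats. Microglial genes summed to 562 to 648 CPM in saline and 501 to 576 CPM in METH rats. Of the 11 genes 2 were called lower, Mpeg1 (log2 fold change -0.79, FDR = 0.00343) and Cx3cr1 (-0.73, FDR = 0.0408), against 8 of all 12014 genes. Csf1r had -0.22 (FDR = 0.398). By value 8 of the 11 were lower and 3 higher, C1qa (0.11), C1qb (0.09) and C1qc (0.11). Neuronal genes summed to 13528 to 14386 CPM in saline and 14241 to 17494 CPM in METH rats. This sum is dominated by Ppp1r1b, with a mean of 7169 CPM in saline and 8499 CPM in METH rats. By value 6 of the 10 neuronal genes were higher and 4 lower. Snap25 had -0.52 (FDR = 0.0632), and Ppp1r1b 0.25 (FDR = 0.328) and Drd2 0.19 (FDR = 0.421). Meningeal fibroblast genes summed to 30.2 to 54.9 CPM in saline and 29.9 to 50.6 CPM in METH rats, and 0 of 6 tested had an unadjusted p below 0.05 in either direction.

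**Figure D4:**
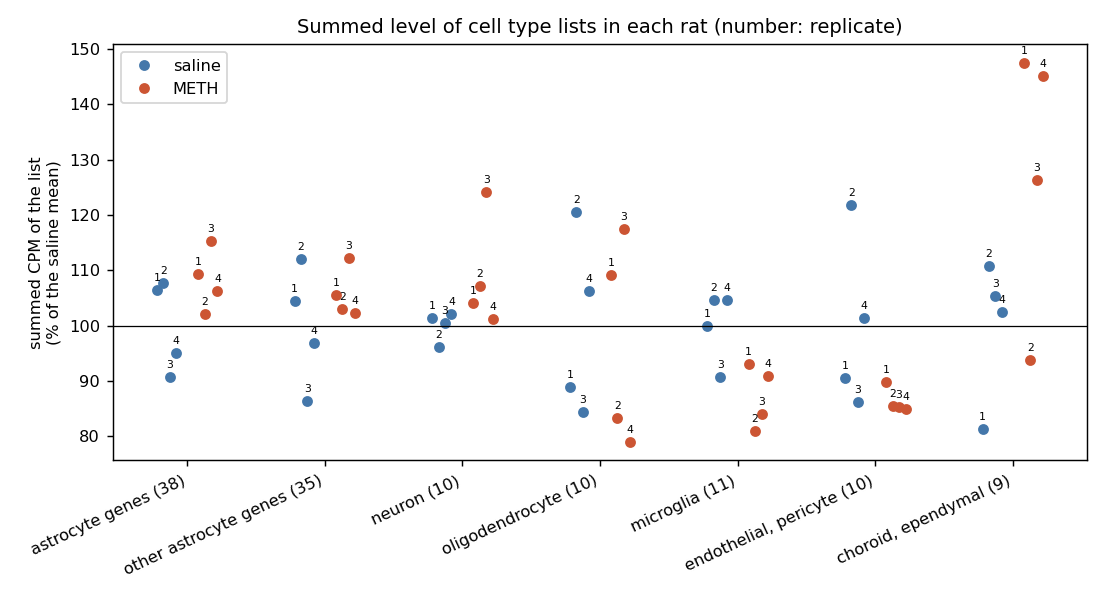
Summed CPM of 7 lists of cell type genes in each rat (y axis, percent of the saline mean of that list, not starting at 0; number above each point, the replicate; number after each list, the genes summed). The astrocyte sums of METH and saline rats overlap, METH 1 and METH 3 stand above METH 2 and METH 4 for oligodendrocyte genes, and the endothelial sums of METH rats, 495 to 523 CPM, lie within or below the saline range.

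A further 38 genes of astrocytes, 35 of which were listed and tested, were read from the same fit. None was called, against 0.516% of all genes. An unadjusted p below 0.05 was found for 4 (11.4%) with a higher and 1 (2.86%) with a lower METH mean. Over all genes these shares were 6.26% and 4.88%. The median log2 fold change of the 35 was 0.05. Cbs, cystathionine beta-synthase, read 76.6, 72.8, 77.6 and 64.3 CPM in saline and 90.4, 87.3, 89.7 and 83.3 CPM in METH rats. Its groups did not overlap, and the log2 fold change was 0.27 (SE 0.08, FDR = 0.224). Prdx6, a peroxiredoxin, had 0.22 (FDR = 0.398) and Bcan, the matrix protein brevican, 0.16 (FDR = 0.419). Slco1c1, a thyroid hormone transporter of astrocytes and brain endothelium, was the one in the other direction, at 111, 127, 95.9 and 121 CPM in saline and 89.1, 87.2, 78.4 and 94.7 CPM in METH rats. All METH rats were below all saline rats (log2 fold change -0.38, SE 0.10, FDR = 0.132). Of the 35 genes 1 (2.86%, Cbs) had METH rats all above, against 3.75% of all genes. Slco1c1 was the 1 gene with METH rats all below, against 2.65% of all genes.

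Genes raised in reactive astrocytes after injury or inflammation, 28 in all, of which 27 were listed and 23 tested, lay on both sides of 0. Their median log2 fold change was 0.04, with 13 above and 10 below 0. Of the 23, 1 was called, against 62 of all 12014 genes (0.516%). It was Hspb1, a small heat shock protein that many cell types make. Hspb1 read 12.2, 9.45, 12.7 and 13.6 CPM in saline and 20.2, 21.6, 31.5 and 25.1 CPM in METH rats. Every METH rat was above every saline rat, and Hspb1 rose 2.05-fold (log2 fold change 1.04, SE 0.16, FDR = 0.00680). Clcf1, a cytokine of the CNTF family, also had no overlap, with a log2 fold change of 0.63 (FDR = 0.135). In the other direction S1pr3, a sphingosine-1-phosphate receptor, had -0.45 (FDR = 0.324), also without overlap. Complement C3 had -0.66 (FDR = 0.377), with overlap. In all, METH rats lay above every saline rat for 2 of the 23 genes (8.70%), against 3.75% of all genes. They lay below for 1 of the 23, against 2.65% of all genes.

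The pathways around the regulators gave few differences and no calls. Of 12 further Notch pathway genes 10 had a lower mean in METH rats, as had 6172 of all 12014 genes. The median of the 12 was -0.10 log2 units. An unadjusted p below 0.05 with a lower METH mean was found for 2 of them (16.7%, against 4.88% of all genes). The ligand Jag1 read 17.1, 17.3, 14.2 and 15.1 CPM in saline and 13.9, 12.7, 10.4 and 10.2 CPM in METH rats, without overlap (log2 fold change -0.43, SE 0.14, FDR = 0.266). Jag1 was the 1 gene of these 12 with all METH rats below all saline rats, against 2.65% of all genes. Rbpj, the DNA-binding partner of the cleaved receptor, had -0.22 (FDR = 0.431).

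BMP signalling drives the Id genes, and 13 of its genes were tested. An unadjusted p below 0.05 with a higher METH mean was found for 2 (15.4%, against 6.26% of all genes). With a lower METH mean it was found for 1 (7.69%, against 4.88%), around a median log2 fold change of -0.02. Both higher ones encode inhibitors of the pathway. Smad7 read 65.2, 59.6, 71.5 and 67.2 CPM in saline and 91.0, 86.2, 78.6 and 82.8 CPM in METH rats, without overlap (log2 fold change 0.36, SE 0.08, FDR = 0.0869). Smad6 had 0.54 (FDR = 0.345) and the receptor Bmpr1b -0.51 (FDR = 0.428), each also without overlap. All METH rats thus lay above all saline rats for 2 of the 13 genes (15.4%), against 3.75% of all genes. They lay below for 1 of the 13, against 2.65% of all genes. Of 11 genes of lactate and glycogen handling none had an unadjusted p below 0.05, and their median was 0.07.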

How the data were processed

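The deposited values are raw counts of reads per gene, 1 column per rat, which the authors made with cutadapt 1.18 for trimming, STAR 2.7.0e for alignment to rn6 and featureCounts of Subread 1.6.4. Annotation, strand setting and the rule for multi-mapping reads are not given in the sources used here, so values of genes with close paralogs or an overlapping gene are uncertain. A column's name gave its treatment and rat.

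Tests were made in edgeR 4.0.16 under R 4.3.3: filterByExpr (minimum count 10), TMM scaling and the quasi-likelihood F-test, on all 8 rats without covariates. The SE is the size of the log2 fold change divided by the square root of F. A mean log2 CPM used a prior count of 2, and intervals cover 95%. Single genes were also compared by a two-sided exact permutation test over the 70 labelings. Precision is limited by the number of counts and by how far rats differ, and the labels name each rat but give no litter or batch. The procedure was tested on simulated data with differences larger than those of the astrocyte genes, so the test does not show how often smaller ones are found.

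Values in every rat were given for astrocyte genes with an unadjusted p below 0.05, for the highest and the lowest log2 fold change of each of 6 role groups, and for Gfap, Aqp4, Slc1a2, Slc1a3, Gja1, Aldh1l1 and S100b. Of each other list the called genes and up to 3 per direction with an unadjusted p below 0.05 were named. Mbp, Ttr, Otx2 and Id1 were named after their values were seen, and so were Slc39a12, Vim and Serpina3n by rat. The members, lists and role groups were chosen with earlier results of these data known. Alternatives were DESeq2 1.42.0, voom of limma 3.58.1, the likelihood ratio test, RLE and total-count scaling, every gene with at least 1 count, a replicate block, and each rat left out.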

Additional observations from a re-analysis of the deposited data

Results flagged for a closer look

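In 74 groups of 4 rats (37 genes in each of 2 treatments), 3 (4.05%) had 1 rat far from the other 3, and about 1 in 20 would be marked by chance at this limit. Each was in the METH group. The gap share is the distance from that rat to the next one, divided by the distance from the lowest to the highest rat of the group. For Ppp1r3c, the glycogen-targeting phosphatase subunit, METH 3 was low with 44.2 CPM and a gap share of 0.887. For Apoe, METH 3 was high with 7799 CPM and a gap share of 0.877. For Vim, METH 1 was high with 132 CPM and a gap share of 0.861. Without METH 3 the log2 fold change of Ppp1r3c was 0.088.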

How the results depend on the processing

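The median log2 fold change of the astrocyte genes stayed above 0 in all alternatives and moved by less than the spread between rats (0.002 to 0.12 with a rat left out). All genes called numbered 62, against 186 with DESeq2, 170 with the likelihood ratio test, 37 with the replicate block and 37 to 70 with a rat left out. Astrocyte genes called numbered 0, against 1 (Gjb6) with DESeq2 and with the likelihood ratio test, and 0 to 1 (Agt) with a rat left out. Those higher at an unadjusted p below 0.05 numbered 6, against 2 with total-count scaling, 2 with the replicate block and 2 to 10 with a rat left out. Those lower numbered 0, against 1 (Lcn2) with the likelihood ratio test and 0 to 2 with a rat left out, the 2 being Aqp4 and Gja1 without METH 1, and Slc1a2 and Slc4a4 without METH 2. Non-overlapping genes higher in METH rats numbered 1, and 1 to 4 in either direction with a rat left out, where 4.69% to 7.5% of all genes lay above and 3.63% to 5.89% below. Gjb6 and Agt kept an unadjusted p below 0.05 in 15 of 15 alternatives, Clu in 9, Ntsr2 in 8, Id3 in 7 and Apoe in 6. The cause of these shifts was not tested.

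Log2 fold changes near 0 turned sign. With total-count scaling, which moved the median of all genes to -0.04, Glul had -0.015, Slc7a10 -0.0048 and Ppp1r3c -0.020. Cldn10 had 0.018 with limma-voom and 0.0079 with the replicate block. With a rat left out, the ranges were -0.086 to 0.022 for Slc1a3, -0.024 to 0.072 for Glul, -0.090 to 0.043 for Slc6a9, -0.12 to 0.12 for Cldn10, -0.31 to 0.72 for Slc39a12, -0.081 to 0.12 for Ppp1r3c, -0.00099 to 0.13 for Acsbg1, -0.073 to 0.016 for Mfge8, -0.020 to 0.23 for Sparcl1, -0.068 to 0.044 for Gpc5, -0.011 to 0.20 for Sox9, -0.11 to 0.086 for Id2, -0.077 to 0.024 for Notch1 and -0.21 to 0.084 for Cd44. Same-numbered rats are different animals, and their deviations correlated at -0.20 to 0.04, so the replicate block is only an alternative and did not call any astrocyte gene.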
